A study of Homo sapiens with 12 samples.

Results

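CASP10 and 7 other genes of the caspase pathway were followed in the human papillary thyroid carcinoma cell line TPC1 and in 3 lines derived from it. The members were CASP10, CASP8, CASP2, CASP9, CASP6, CFLAR, FADD and TNFRSF10B, 8 of the 58302 genes in the deposited table, taken by gene name. The study measured some of the genes changed in all clones again by RT-qPCR, CASP10 among them, and reports that the results upheld its sequencing. The set was chosen by measured values, because CASP10 was among these genes, and the other members were added as its pathway partners. The values of the members against TPC1, counts by the call rule included, are therefore a description from which nothing is read, and p-values are given only for the clones against each other and for genes outside the set. TPC1 carried wild-type Dicer1 and received no treatment. D11, WB1 and TD5 were Dicer1 (+/−) lines made from TPC1 with a transiently transfected CRISPR/Cas9 plasmid, each grown from a single cell, so that each of them is 1 clone and a difference of a clone cannot be told apart from a difference of the cell it came from. Each of the 4 lines had 3 mRNA libraries, 12 in all, and nothing in the labels says that these came from separate cultures, so the p-values measure the spread between libraries, which may be technical.

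Caspases are cysteine proteases that are made as inactive precursors and cut their targets after aspartate. In the extrinsic pathway a ligand such as TRAIL or Fas ligand clusters a death receptor, the adaptor FADD binds the receptor tail, and the initiators caspase-8 and caspase-10 are recruited to FADD and activated by proximity, while CFLAR, which encodes c-FLIP, occupies the same complex and tunes caspase-8. In the intrinsic pathway cytochrome c released from mitochondria drives caspase-9 activation, and both routes end in executioner caspases, which cut lamins and many other proteins.

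CASP10 lies between CFLAR and CASP8 on the long arm of chromosome 2, a run of 3 related genes on the plus strand. On GRCh38 (GENCODE annotation) CFLAR spans chr2:201116154-201176687, CASP10 chr2:201182872-201229428 and CASP8 chr2:201233443-201361836. The gap from the end of CFLAR to the start of CASP10 is 6.18 kb, and that from the end of CASP10 to the start of CASP8 is 4.01 kb. The coding sequence around the catalytic cysteine is shown for the 5 caspases of the set, because it is the stretch that makes these members proteases. In each line the capitals mark the codons for Gln-Ala-Cys, any residue and Gly, flanked by coding bases, 5′ to 3′ on the coding strand of the MANE Select transcript.
CASP10: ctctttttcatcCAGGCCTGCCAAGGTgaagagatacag
CASP8: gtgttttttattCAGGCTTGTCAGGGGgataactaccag
CASP2: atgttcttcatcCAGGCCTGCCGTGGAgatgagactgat
CASP9: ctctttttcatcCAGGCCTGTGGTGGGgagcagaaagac
CASP6: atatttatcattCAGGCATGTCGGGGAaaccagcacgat
The CASP10 stretch lies in exon 9 (chr2:201209330-201209368) and that of CASP8 in exon 8 (chr2:201285073-201285111), whereas those of CASP2, CASP9 and CASP6 cross an exon junction and are given as spliced. Over the 39 bases CASP10 was identical to CASP9 at 29, to CASP2 at 28, to its neighbour CASP8 at 25 and to CASP6 at 22. The coding sequences of CFLAR and FADD contained 0 matches to this motif, c-FLIP being the caspase-like member without a protease centre.

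The deposited values were read counts that had been scaled to 20000000 reads per library and rounded up, called scaled reads here. The reads behind each library, estimated from the steps between low values, ranged from 12700000 to 21020000. DICER1, the targeted gene, had 1360, 1129 and 1101 scaled reads in the libraries of TPC1, 977, 1051 and 1093 in those of D11, 881, 939 and 815 in those of WB1 and 643, 627 and 809 in those of TD5, so that every clone library lay below every TPC1 library. DICER1 met the call rule defined below only in TD5, with a log2 fold change of -0.77 ± 0.10 (SE). Of the markers of the thyroid follicular cell, TSHR, NKX2-1 and SLC5A5 were listed at 0 in all 12 libraries and TG reached 27 scaled reads, while PAX8 ranged from 7248 to 9879 and FOXE1 from 93 to 316. Of the epithelial keratins, KRT8 and KRT18 were at 5237 or more, KRT7 ranged from 209 to 308 and KRT19 from 0 to 6, and the leukocyte and endothelial markers PTPRC, CD3E, CD14, PECAM1 and VWF did not exceed 7. Of the stromal markers, DCN was listed at 0, COL1A1 ranged from 48 to 97, and PDGFRB was at 37 to 56 in WB1 and at 95 or more in the other lines.

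CASP10 was the one member whose level differed widely between the lines, and it was also the lowest member in each of them. TPC1 had 57, 55 and 63 scaled reads of CASP10, D11 had 9, 11 and 16, WB1 had 3, 0 and 3, and TD5 had 4, 2 and 6. No clone library overlapped TPC1, and no D11 library overlapped WB1 or TD5. The mean of TPC1 was 58.3 ± 4.16 (SD, n = 3), and the clone means of 12 ± 3.61, 2 ± 1.73 and 4 ± 2 scaled reads were 20.6%, 3.43% and 6.86% of it. In a bulk library, fewer cells that express a gene and less RNA per cell cannot be told apart.

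Few reads stood behind these values. The estimated reads of CASP10 were 59, 47 and 43 in the libraries of TPC1, 6, 9 and 13 in those of D11, 2, 0 and 2 in those of WB1 and 2, 1 and 4 in those of TD5. All WB1 libraries were below the limit that a count of 0 allows, which is 3 reads, or 3.46 to 3.65 scaled reads in that line. TD5 replicates 1 and 2, at 4 and 2 scaled reads, were also below their limits of 4.72 and 4.21. TD5 replicate 3, at 6, was above its limit of 3.77. Summed over the libraries of a line and divided by depth, CASP10 was 4.9 times higher in TPC1 than in D11 (exact 95% interval 3.26 to 7.63), 36.4 times higher than in WB1 (13.9 to 135) and 17.6 times higher than in TD5 (8.32 to 44.4). These intervals cover counting error only, and the reads carried no molecular identifiers. They are a description, because CASP10 was chosen by its change against TPC1. On the log2(value per 1000000 + 1) scale, which understates the change of so low a gene, the fold changes were -1.30, -1.83 and -1.71, each ± 0.13 (SE).

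**Figure D1:**
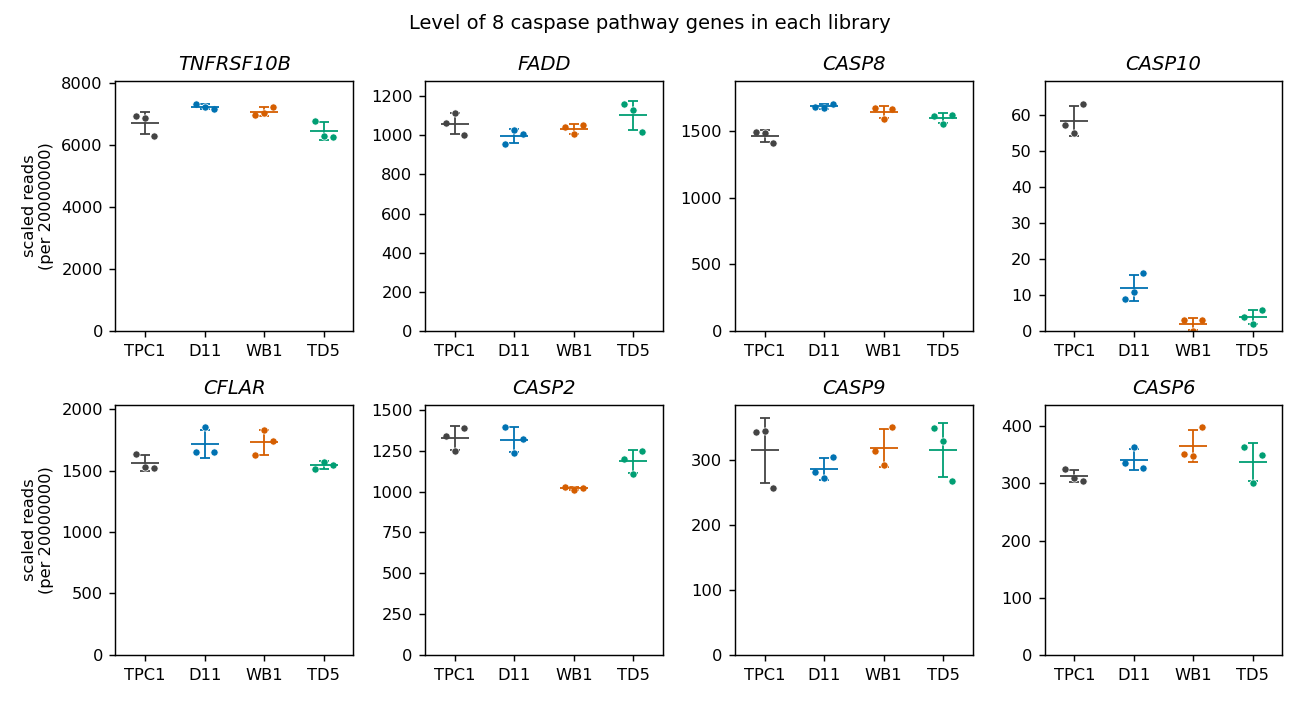
Scaled reads (per 20000000, vertical axis from 0) of the 8 members in TPC1, D11, WB1 and TD5, with 1 point per library and the mean ± SD of the 3 libraries. CASP10 is at 55 to 63 in TPC1 and at 0 to 16 in the clones. The other 7 members differ less between the lines, with CASP2 lower in WB1, at 76.9% of its TPC1 mean.

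Per kilobase of the MANE Select transcript and per 1000000 reads, the members kept nearly the same order in every line. TNFRSF10B, which encodes the TRAIL receptor DR5, was highest at 83.6 ± 4.42 (SD, n = 3) in TPC1, followed by FADD at 31 ± 1.61 and CASP8 at 27.4 ± 0.847. FADD and CASP8 changed places in D11 (29.2 and 31.6) and in WB1, where their ranges of 29.4 to 30.8 and 29.8 to 31.4 overlapped. CASP2 at 16.2 ± 0.906 and CASP6 at 9.57 ± 0.324 came next in TPC1. CASP9 at 5.6 ± 0.889 and CFLAR at 5.34 ± 0.224 were not separated beyond their spread in TPC1. They changed places in D11, where CFLAR at 5.64 to 6.33 lay above CASP9 at 4.84 to 5.41, and in WB1, where their ranges overlapped, and the CFLAR value depends on a transcript of 14612 bases with a long untranslated end. CASP10 was at 0.514 ± 0.0367 even in TPC1 and at 0.106, 0.0176 and 0.0353 in D11, WB1 and TD5. On this per length scale the range of CASP10 lay below that of CASP8, the other initiator of the receptor complex, in all 4 lines.

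A gene was called where the Benjamini-Hochberg adjusted p of limma over the 16027 genes tested was under 0.05 and the change at least 1.5-fold. Tested genes had at least 1 scaled read per 1000000 in at least 3 libraries. All 8 members entered the test, but CASP10 did so only through its 3 TPC1 libraries, so that it had to differ. Among all genes tested, 2.89% were called higher and 1.95% lower in D11 than in TPC1, 3.39% and 1.59% for WB1, and 1.12% and 1.48% for TD5. Of the members, 1 of 8 was called lower in each clone, in each case CASP10, and 0 were called higher. On adjusted p alone, 33.3%, 30.9% and 11.9% of all genes passed in D11, WB1 and TD5, and 2, 3 and 1 of the 8 members did. The median log2 fold change of the members was 0.05, 0.05 and -0.01, against 0.05, 0.06 and 0.00 over all genes tested.

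At the receptor, TNFRSF10B had 6917, 6870 and 6282 scaled reads in the libraries of TPC1, 7320, 7223 and 7145 in those of D11, 6944, 7011 and 7230 in those of WB1 and 6778, 6290 and 6249 in those of TD5. All D11 and WB1 libraries lay above all TPC1 libraries, those of TD5 within or just below their range, and the log2 fold changes were 0.11, 0.08 and -0.05, each ± 0.05. FADD, the adaptor, ranged from 1003 to 1113 in TPC1 and from 957 to 1161 over the 9 clone libraries. Its fold changes were -0.08, -0.03 and 0.05, each ± 0.07.

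CASP8, the initiator that shares the receptor complex with CASP10, had 1488, 1484 and 1408 scaled reads in the libraries of TPC1, 1681, 1668 and 1703 in those of D11, 1669, 1587 and 1663 in those of WB1 and 1612, 1551 and 1618 in those of TD5. Every clone library was above every TPC1 library, opposite in sign to CASP10, but the differences were small, 0.20, 0.17 and 0.12 on the log2 scale (each ± 0.06). With each library corrected for the GC content of genes, the CASP8 differences in D11 and WB1 shrank to 0.05 and 0.02. CFLAR, on the other flank of CASP10, had 1638, 1528 and 1522 scaled reads in the libraries of TPC1, 1655, 1851 and 1648 in those of D11, 1626, 1828 and 1737 in those of WB1 and 1509, 1572 and 1549 in those of TD5. D11 lay above TPC1 without overlap, WB1 and TD5 overlapped it, and the fold changes were 0.13, 0.14 and -0.02 (each ± 0.07). CFLAR overlaps CFLAR-AS1 on the minus strand and AC007283.1 on its own strand, and CASP8 overlaps ALS2CR12. CASP10 itself overlaps MTND4P23, MTND5P25 and MTND4LP13, all on the minus strand. The library kit was stranded, but the strand setting of the counting is not given in the sources used here.

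CASP2, an initiator linked to DNA damage and the PIDDosome, was the other member that stood apart in a clone. Its values were 1341, 1246 and 1392 in the libraries of TPC1, 1393, 1239 and 1323 in those of D11, 1029, 1008 and 1024 in those of WB1 and 1202, 1110 and 1246 in those of TD5. WB1 was below all libraries of the other lines, at 76.9% of the TPC1 mean, D11 spanned the same range as TPC1, and TD5 touched the lowest TPC1 library. The log2 fold changes against TPC1 were -0.01, -0.37 and -0.16, each ± 0.07. CASP9, the apoptosome initiator, ranged from 257 to 344 in TPC1 and from 268 to 350 in the clones, and its fold changes were -0.12, 0.02 and 0.01 (each ± 0.12). CASP6, an executioner that cleaves lamin A, had 325, 309 and 305 in TPC1 and from 301 to 398 in the clones, with fold changes of 0.12, 0.21 and 0.10 (each ± 0.09).

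**Figure D2:**
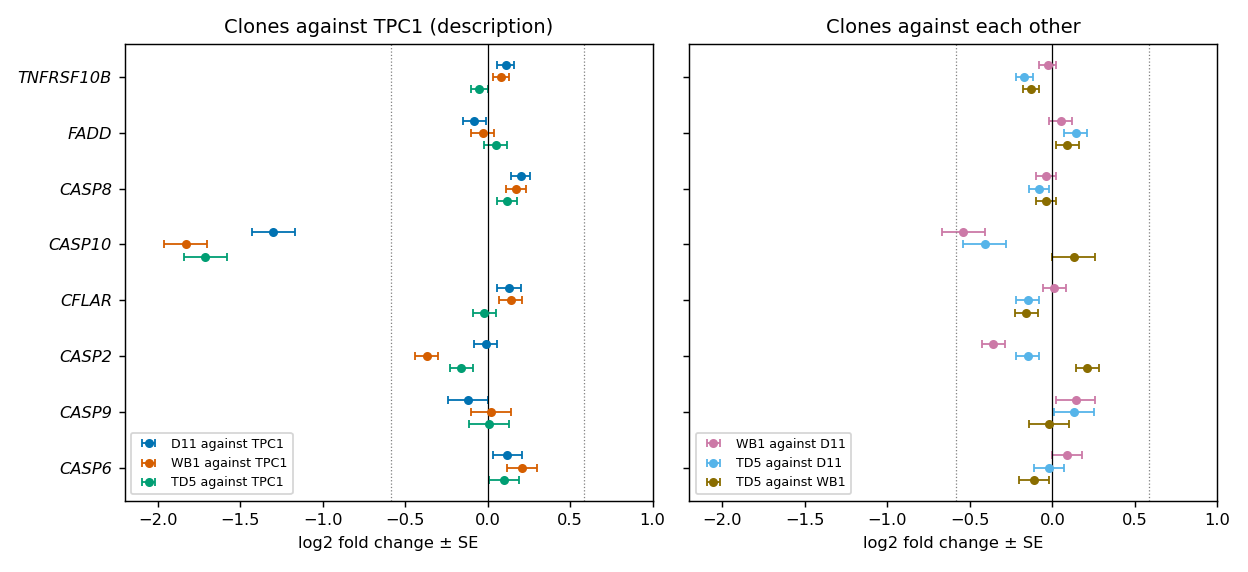
Log2 fold change ± SE (horizontal axis) of each member, with the clones against TPC1 on the left and against each other on the right, and dotted lines at 1.5-fold. CASP10 sits at -1.30, -1.83 and -1.71 on the left, all other members lie inside the dotted lines, and on the right CASP10 and CASP2 are lower in WB1 than in D11.

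The comparison of the clones with each other was not used to choose the members. Among all genes tested, 1.97% were called higher and 0.88% lower in WB1 than in D11, 1.67% and 2.32% in TD5 than in D11, and 0.611% and 1.72% in TD5 than in WB1. By the same limma call rule 0 of 8 members were called in any of these 3 comparisons, and the largest member difference, of CASP10, was 1.45-fold on this scale. At unadjusted p under 0.05, 2, 4 and 3 of the 8 members passed in WB1 against D11, TD5 against D11 and TD5 against WB1, beside 19.3%, 36.9% and 30.4% of all genes, and limma-voom on estimated reads called 2, both of them CASP10. On adjusted p alone 2, 2 and 1 members passed, beside 8.07%, 23.2% and 13.6% of all genes.

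CASP10 was lower in WB1 than in D11 by -0.54 ± 0.13 on the log2 scale (limma adjusted p = 0.0168). It was also lower in TD5 than in D11 by -0.41 ± 0.13 (limma adjusted p = 0.0332). CASP10 met the minimum of the test only in TPC1, and every clone library lay below it. Both p-values therefore compare values smaller than the pseudocount, with a spread shared with TPC1, and are a description. TD5 and WB1 differed by 0.13 ± 0.13, with a 95% interval from -0.16 to 0.41. In summed reads, D11 was 7.43 times as high as WB1 (exact 95% interval 2.6 to 29.2) and 3.58 times as high as TD5 (1.53 to 9.72), and TD5 was 2.07 times as high as WB1 (0.527 to 9.66), an interval that includes no difference. These intervals too cover counting error only and leave out the spread between libraries. The size of the log2 value depended on the scale, from -2.77 for limma-voom on estimated reads to -0.17 with a pseudocount of 4 in WB1 against D11. Without D11 replicate 3, the highest of its line, the adjusted p of WB1 against D11 was 0.0959 and that of TD5 against D11 0.151. The first was also lost without WB1 replicate 2 (adjusted p = 0.0736) and the second without D11 replicate 2, TD5 replicate 1 or TD5 replicate 2 (0.0726, 0.0682 and 0.122). TD5 against D11 also missed the threshold with the GC correction (-0.34, adjusted p = 0.0901), with the replicate block and that correction (0.079), with a pseudocount of 4 (0.081) and in a fit of only these lines (0.0641), and WB1 against D11 with a pseudocount of 4 (0.065).

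CASP2 was lower in WB1 than in D11 by -0.36 ± 0.07 (limma adjusted p = 0.00222), and the test passed on adjusted p in all 22 alternatives run. Its difference of 0.21 ± 0.07 between TD5 and WB1 (limma adjusted p = 0.0475) passed in 10 of the 22. TNFRSF10B was lower in TD5 than in D11 by -0.17 ± 0.05 (limma adjusted p = 0.0319), which passed in 15 of the 22. All D11 libraries, at 7145 or more, were above all TD5 libraries, at 6778 or less. For CASP8, CASP9, CASP6, CFLAR and FADD no clone comparison passed, and the 95% intervals of their differences lay between -0.30 and 0.39.

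The genes around CASP10 were read to see how far its change extended along the chromosome. Of 71 genes that start within 1 Mb of its start, members included, 24 besides the members were tested. Against TPC1, 1 of the 24 was called higher in D11 and 0 in WB1 and TD5, and 0 were called lower in any clone. Over all genes 2.89%, 3.39% and 1.12% were called higher in D11, WB1 and TD5, and 1.95%, 1.59% and 1.48% lower. The called gene was CDK15, a cyclin-dependent kinase gene 607.6 kb downstream, with 65, 59 and 63 scaled reads in TPC1 and 138, 126 and 163 in D11 (log2 fold change 0.97 ± 0.12, limma adjusted p = 2.75e-05). At unadjusted p under 0.05, 12, 15 and 6 of the 24 passed in D11, WB1 and TD5, beside 44.6%, 42.7% and 27.1% of all genes. On adjusted p alone 11, 8 and 2 of the 24 passed, beside 33.3%, 30.9% and 11.9% of all genes, all of them higher apart from AOX1 in TD5, an aldehyde oxidase gene, at -0.43 ± 0.09. The median of the 24 was 0.24, 0.21 and 0.05, against 0.05, 0.06 and 0.00 for all genes, and with the GC correction it was 0.10, 0.06 and 0.04, with 3, 4 and 5 genes passing. On the CFLAR side of CASP10 lie AC007283.1 (start 15.9 kb upstream) and CFLAR-AS1, which both overlap CFLAR. AC007283.1 had means of 54 scaled reads in TPC1 and 67, 73.7 and 56.3 in the clones, and CFLAR-AS1 means of 141 and 154, 158 and 153.

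Of the 24 neighbours, 0 were called higher between the clones. Called lower were 1 in WB1 than in D11, 3 in TD5 than in D11 and 1 in TD5 than in WB1. Over all genes 0.88%, 2.32% and 1.72% were called lower in these comparisons, and 1.97%, 1.67% and 0.611% higher. On adjusted p alone 1, 10 and 7 of the 24 passed, beside 8.07%, 23.2% and 13.6% of all genes. CLK1, which encodes a splicing kinase, had 535, 750 and 612 scaled reads in D11 and 637, 739 and 622 in WB1 but 407, 328 and 424 in TD5, lower in TD5 than in D11 by -0.68 ± 0.13 and than in WB1 by -0.76 ± 0.13 (limma adjusted p = 0.00192 and 0.00158). With the GC correction these were -0.42 and -0.57, and without D11 replicate 2 or TD5 replicate 2 the first was -0.55 or -0.57, under the fold limit. CDK15 was lower in both other clones than in D11 by -0.72 and -0.82 (each ± 0.12), and MPP4, a low gene with a mean of 40 in D11 and 19 in TD5, was lower in TD5 than in D11 by -0.61 ± 0.16 (limma adjusted p = 0.0136). Without D11 replicate 2 or TD5 replicate 1 its adjusted p was 0.0857 or 0.0628, and with the GC correction or median-of-ratios scaling it was -0.55 or -0.58, under the fold limit.

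Around the members, 76 other genes of the death receptor and caspase pathways were listed by function, and 57 of them were tested. Against TPC1, D11 had 3 of them called higher and 2 lower, WB1 had 3 and 0, and TD5 had 2 and 1. The share called was 8.77%, 5.26% and 5.26%, and on adjusted p alone 38.6%, 38.6% and 17.5% passed, to be read beside the shares of all genes given above. The median log2 fold change of the 57 was 0.01, 0.05 and -0.01. With the GC correction 7 calls stood in place of 11 against TPC1.

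The death ligands were scarce in all lines and missed the minimum of the test. FASLG, TNFSF10 (TRAIL), TNF, LTA and TNFSF15 had at most 14 scaled reads in any library, and 0 of the 5 could be tested. The receptors were present. Against TPC1, 1 of 8 tested was called higher and 1 lower in D11, beside 2.89% and 1.95% of all genes. In WB1 and TD5 0 were called. On adjusted p alone 4, 2 and 1 of the 8 passed in D11, WB1 and TD5, beside 33.3%, 30.9% and 11.9% of all genes. FAS, the Fas receptor, had 670, 560 and 534 scaled reads in TPC1 and 835, 1085 and 962 in D11, which rose by 0.69 ± 0.12 (limma adjusted p = 0.000791), and 0.52 with the GC correction, under the fold limit. TNFRSF11B (osteoprotegerin, a soluble decoy that also binds TRAIL) had 256, 257 and 225 in TPC1 and 109, 135 and 124 in D11, a fall of -0.90 ± 0.11 (limma adjusted p = 4.24e-05). The clones moved differently in both genes. FAS was lower in TD5 than in D11 by -0.76 ± 0.12, and TNFRSF11B was higher in WB1 than in D11 by 1.18 ± 0.11 and in TD5 by 0.65 ± 0.11 (limma adjusted p = 0.000452, 2.43e-06 and 0.000878). Without D11 replicate 1 or TD5 replicate 2 the last of these was 0.58 or 0.56, under the fold limit. TNFRSF10A, which encodes the TRAIL receptor DR4, had a mean of 1095 ± 37.8 in TPC1 and of 1174, 1110 and 1005 in the clones. TNFRSF1A, the main TNF receptor, and TNFRSF10D, a TRAIL decoy, were the most abundant receptors after TNFRSF10B at 3051 and 1914 in TPC1, and neither was called. Below 1.5-fold, TNFRSF1A was higher in WB1 and TD5 than in TPC1 by 0.21 and 0.25 (limma adjusted p = 0.0163 and 0.0117). It was also higher in them than in D11, by 0.33 and 0.38 (limma adjusted p = 0.00177 and 0.000429, each of the 4 values ± 0.06).

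Of 12 tested adaptors and regulators of the death complexes, 1 was called higher in D11 and 1 lower in TD5 against TPC1. Over all genes 2.89% were called higher in D11 and 1.48% lower in TD5. On adjusted p alone 2, 6 and 2 of the 12 passed in D11, WB1 and TD5, beside 33.3%, 30.9% and 11.9% of all genes. CASP8AP2 (FLASH), which binds caspase-8 and also serves histone mRNA processing, rose in D11 from 411, 368 and 395 to 653, 717 and 631, by 0.74 ± 0.10 (limma adjusted p = 7.42e-05), and by 0.46 with the GC correction. TNFAIP3 (A20), a brake on TNF signalling, fell in TD5 by -0.61 ± 0.14 (limma adjusted p = 0.00886) from a TPC1 mean of 141 to 84, and without TPC1 replicate 1 its adjusted p was 0.0556, while without TPC1 replicate 3 or TD5 replicate 2 the change was -0.58, under the fold limit. PEA15, a death effector domain protein that can keep FADD and caspase-8 apart, was the most abundant of the list and was lower in all 3 clones on adjusted p without reaching 1.5-fold, by -0.24, -0.28 and -0.19 (each ± 0.05, limma adjusted p = 0.003, 0.00105 and 0.0236). RIPK1 had means of 1302 in TPC1 and 1306, 1406 and 1305 in the clones, and DEDD of 1570 and 1578, 1651 and 1626.

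Among the executioner caspases and their substrates 0 of 8 were called in any comparison by limma, with 4, 5 and 3 at unadjusted p under 0.05 in D11, WB1 and TD5 against TPC1, beside 44.6%, 42.7% and 27.1% of all genes. The substrates LMNA and PARP1 were abundant in all lines, at 12988 and 10483 in TPC1. Of the inflammatory caspases, CASP1, which processes interleukin-1 beta, was a scarce transcript. It had 14, 16 and 22 scaled reads in the libraries of TPC1, 7, 3 and 3 in those of D11, 4, 9 and 4 in those of WB1 and 27, 29 and 24 in those of TD5, so that it separated D11 and WB1 from TD5 without overlap. It entered the test only through its 3 TD5 libraries, apart from which 1 TPC1 library reached the minimum, so that its differences of 0.94 ± 0.14 and 0.87 ± 0.14 between TD5 and D11 or WB1 are a description. It was lower in D11 than in TPC1 by -0.62 ± 0.14 (limma adjusted p = 0.00362), a value that shrinks with a larger pseudocount. That difference was -0.53 without TPC1 replicate 3 and -0.58 without D11 replicate 2 or 3, under the fold limit. In D11 replicates 2 and 3, its 3 scaled reads lay below the limits of 3.57 and 3.65 that a count of 0 allows. CASP4, which senses intracellular lipopolysaccharide, stayed between 905 and 1142.

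On the mitochondrial side, 0 of 6 apoptosome and mitochondrial factors were called by limma (3, 2 and 1 at unadjusted p under 0.05 in D11, WB1 and TD5, beside the same 44.6%, 42.7% and 27.1%), among them CYCS (cytochrome c), AIFM1 and APAF1, with APAF1 at 572 ± 68.8 in TPC1 and 695, 692 and 694 in the clones. Of the 5 IAP genes tested, 0 were called against TPC1 by limma (2 at unadjusted p under 0.05 in each clone, beside those shares), and BIRC2 (cIAP1) was lower in TD5 than in D11 by -0.66 ± 0.13 (limma adjusted p = 0.00193), or by -0.57 without TD5 replicate 1 and -0.44 with the GC correction, both under the fold limit. XIAP, a direct caspase inhibitor, was at 875 ± 52.3 in TPC1 and 1141, 1121 and 918 in the clones. MLKL, the effector of necroptosis, was the tested gene of the last list, with means of 178 in TPC1 and 150, 180 and 146 in the clones, and its kinase RIPK3 was listed at 0 in all libraries.

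Of 5 tested anti-apoptotic members, 1 was called higher in WB1 against TPC1, beside 3.39% of all genes. In D11 and TD5 0 were called. On adjusted p alone 3, 4 and 2 of the 5 passed in D11, WB1 and TD5, beside 33.3%, 30.9% and 11.9% of all genes. BCL2A1 rose in WB1, from 22, 17 and 28 to 43, 49 and 56 scaled reads, by 0.72 ± 0.14 (limma adjusted p = 0.00179), and was lower in TD5 than in D11 and WB1 by -0.61 and -0.78 (each ± 0.14). The rise in WB1 was 0.54 with the GC correction, and the difference from D11 was -0.55 without D11 replicate 1 and -0.54 without D11 replicate 2, all under the fold limit. MCL1, the most abundant of them, was higher in D11, WB1 and TD5 by 0.42, 0.36 and 0.24 (each ± 0.07, limma adjusted p = 0.000501, 0.00161 and 0.033), below 1.5-fold, and in TD5 this passed in 14 of 22 alternatives. BCL2L1 (BCL-XL) was lower in WB1 than in TPC1 by -0.37 ± 0.07 (limma adjusted p = 0.000704), also below 1.5-fold. In TD5 it was lower by -0.21 ± 0.07 (limma adjusted p = 0.0423), which passed in 10 of 22 alternatives, and in D11 it was at -0.04.

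Of 10 tested pro-apoptotic members, 1, 2 and 2 were called in D11, WB1 and TD5, all higher, beside 2.89%, 3.39% and 1.12% of all genes called higher. BBC3 (PUMA) rose in D11 from 68, 52 and 60 to 114, 135 and 87, by 0.71 ± 0.15, and PMAIP1 (NOXA) in WB1 from 434, 399 and 377 to 583, 744 and 555, by 0.60 ± 0.15 (limma adjusted p = 0.00301 and 0.00654). The PMAIP1 change was 0.38 with the GC correction, 0.56 without TPC1 replicate 3 and 0.48 without WB1 replicate 2, under the fold limit. BNIP3L, a mitophagy receptor and hypoxia target, rose in WB1 by 0.68 ± 0.21 and in TD5 by 1.06 ± 0.21 (limma adjusted p = 0.0232 and 0.00358), and without TPC1 replicate 3, WB1 replicate 2 or WB1 replicate 3 the adjusted p of the first was 0.0956, 0.0901 or 0.085, with no filter 0.0639, and with the GC correction 0.0721 at a change of 0.47. Its relative BNIP3 rose in TD5, from 1859, 2078 and 1667 to 3591, 2808 and 4430, by 0.92 ± 0.16 (limma adjusted p = 0.00118). In both of these genes the libraries of WB1 and TD5 spread widely, BNIP3L from 1059 to 1732 and from 1286 to 2732. BAK1, a pore former of the outer mitochondrial membrane, was named after its values were seen. It had 1560, 1595 and 1710 scaled reads in the libraries of TPC1, 1165, 1053 and 1083 in those of D11, 1360, 1195 and 1295 in those of WB1 and 1188, 1343 and 1150 in those of TD5, below TPC1 in all 9 clone libraries. The differences of -0.55, -0.33 and -0.40 (each ± 0.07, limma adjusted p = 6.77e-05, 0.00333 and 0.00201) did not reach 1.5-fold and passed on adjusted p in all 22 alternatives. BAX, the other pore former, had means of 2186 in TPC1 and 2229, 1957 and 1828 in the clones, and BID, which caspase-8 cleaves, of 889 and 946, 772 and 890.

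**Figure D3:**
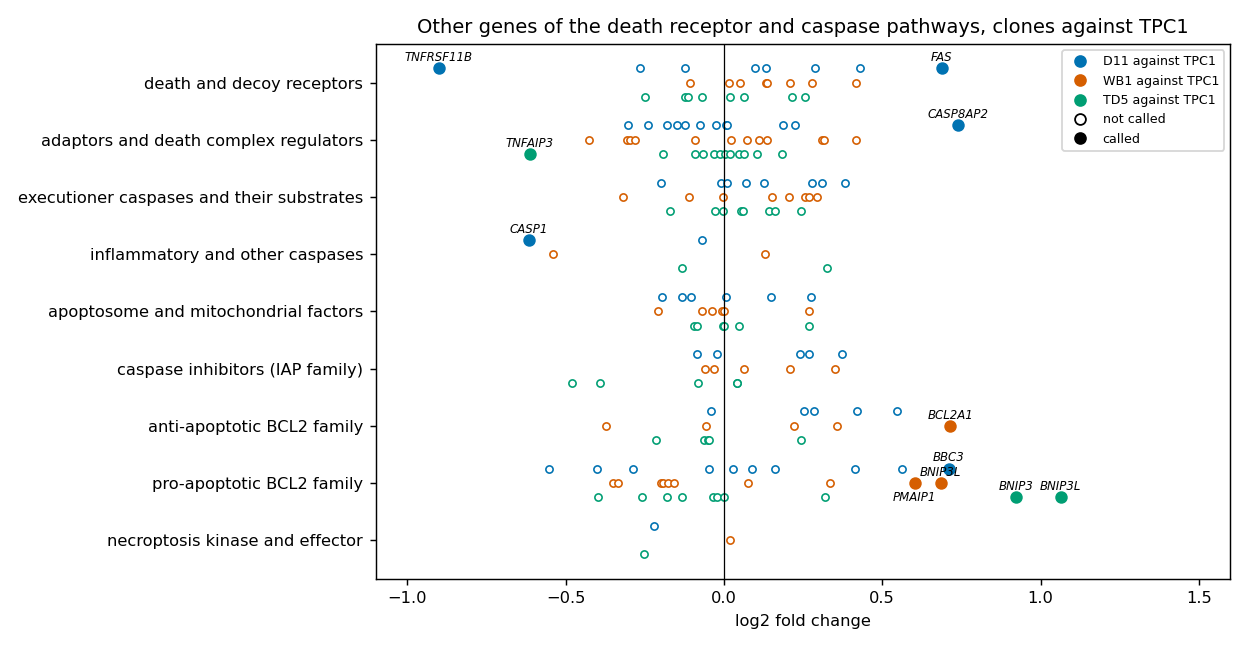
Log2 fold change (horizontal axis) against TPC1 of the 57 tested pathway genes by list, with 1 point per gene and clone and filled, named points for called genes. The calls are scattered over the lists and clones, from TNFRSF11B at -0.90 in D11 to BNIP3L at 1.06 in TD5, and the open points cluster around 0.

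Between the clones, 1 of the 57 was called higher and 1 lower in WB1 than in D11, 3 and 5 in TD5 than in D11, and 2 and 1 in TD5 than in WB1, or 3.51%, 14% and 5.26%. Over all genes 1.97% and 0.88%, 1.67% and 2.32%, and 0.611% and 1.72% were called higher and lower in these comparisons. Those called in TD5 against D11 were FAS, BBC3, BIRC2, CASP8AP2 and BCL2A1, which were lower in TD5, and CASP1, TNFRSF11B and BNIP3, which were higher. CASP1 entered the test through TD5, and CASP8AP2 was at -0.44 with the GC correction, under the fold limit.

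Over the 12 libraries, the genes whose log2 values followed CASP10 most closely were SMIM10 (Pearson r = 0.968), IQCA1 (0.961), AP003392.3 (0.952), OAT (0.95) and FOXE1 (0.946). These values describe the step from TPC1 to the clones, since libraries of a line share it, and 61 of 16026 other tested genes had an r of 0.9 or more. SMIM10, on chromosome X, had 46, 35 and 56 scaled reads in TPC1 and at most 5 in any clone library. IQCA1, on chromosome 2 but outside the window around CASP10, had 88, 75 and 83 in TPC1 and from 8 to 24 in the clones. FOXE1, a transcription factor of the thyroid follicular cell, had 316, 286 and 280 in TPC1 and from 93 to 171 in the clones, and its part in the CASP10 difference was not tested. OAT, ornithine aminotransferase, was at 76.8% to 84.6% of its TPC1 mean in the clones. The members themselves followed CASP10 less closely, from an r of -0.745 for CASP8 to 0.678 for CASP2.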

How the data were processed

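Messenger RNA of 12 libraries, 3 each of TPC1, D11, WB1 and TD5, was sequenced in pairs after TruSeq Stranded mRNA preparation. The deposited values are scores in the sense that they are no longer counts. Per the submitters' processing notes, the authors aligned reads with STAR 2.5.3a to GRCh38 and counted them per gene with HTSeq 0.9.1, and each library was then scaled to 20000000 reads and rounded up. The strand setting of the counting is not given in the sources used here.

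Because such values are not counts, limma 3.58.1 (R 4.3.3) with a mean-variance trend was fitted to log2(value per 1000000 + 1) with 1 mean per line over all 12 libraries, after a filter of at least 1 per 1000000 in at least 3 libraries. Calls required a Benjamini-Hochberg adjusted p under 0.05 over all 16027 genes and at least 1.5-fold. Confidence intervals of log2 fold changes use the t quantile of the fit. Reads per library were estimated from the steps between low values, which the scaling leaves visible. The script was tested on simulated data. Libraries of the same line differed by more than sampling noise, with a chi-square per gene of 2.94 to 10.25, so that none was counted as a duplicate.

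The members and the gene lists were chosen with earlier results of these data known. The text names the members, DICER1, pathway genes called in at least 1 of 6 comparisons, the 2 most abundant genes of each list, tested genes within 1 Mb of CASP10 and the 5 genes most like CASP10. TNFRSF10A, RIPK1, BID, APAF1, XIAP and BAK1 lie outside this rule and were added after their values were seen, for their place in the pathway. Positions and exons come from GENCODE on GRCh38, a later release than the files used, and 98.7% of the table's genes were found in it. No RefSeq promoter entry was given for CASP10.

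Alternatives were the pseudocount, the filter, median-of-ratios scaling, a GC correction, limma-voom on estimated reads, a fit of only the compared lines, a replicate block, no minimum fold change and leaving out each library. Libraries with the same number deviated together only in D11 and TD5, with correlations of 0.107, 0.172 and 0.348 for the 3 pairs. The labels do not give an origin for this. The main fit paired no libraries, and the replicate block fitted the number over all 12 libraries, not for D11 and TD5 alone. Results for some genes of the lists are not reported here.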

Additional observations from a re-analysis of the deposited data

Results flagged for a closer look

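The clones share the parent line TPC1, so a difference between them is also a difference between their changes against it, and each line is 1 clone, so that the Dicer1 change and the founder cell cannot be told apart. In 5 cases a member differed between clones on limma's adjusted p, all below 1.5-fold. CASP10 was lower in WB1 than in D11 by -0.54 on the log2 scale and lower in TD5 than in D11 by -0.41. Behind it stood 0 to 13 estimated reads per clone library, all below the minimum of the test, so both differences are a description. CASP2 was lower in WB1 than in D11 by -0.36 and higher in TD5 than in WB1 by 0.21. TNFRSF10B was lower in TD5 than in D11 by -0.17. Of these, the CASP2 difference between WB1 and D11 alone passed on adjusted p in all 22 alternatives, whereas the others passed in 19, 14, 10 and 15 of them, in the order CASP10 in WB1, CASP10 in TD5, CASP2 in TD5 and TNFRSF10B in TD5.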

How the results depend on the processing

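Depth limits CASP10, since a library held 0 to 13 of its reads in the clones. All WB1 libraries and TD5 replicates 1 and 2 were below what a count of 0 allows. The CASP10 value in WB1 against TPC1 went from -0.75 with a pseudocount of 4 to -5.06 with limma-voom. A pseudocount, the fold limit and the GC content of genes moved the counts of calls, in the ways given here, and the causes were not tested beyond these settings. The number of member calls against TPC1 was 3, all CASP10, and became 6 with no minimum fold change. Between clones 0 members were called, 2 with a pseudocount of 0.1, 2 with limma-voom on estimated reads, 5 with no minimum fold change and 0 to 1 when a library was left out, the 1 without D11 replicate 1. The 11 calls of other pathway genes against TPC1 became 6 with a pseudocount of 4, 7 with the GC correction and 54 with no minimum fold change, and the 13 between clones became 5 and 38 with that pseudocount and with no minimum fold change. The 1 call among the neighbours became 2 with a pseudocount of 0.1, 2 with limma-voom, 21 with no minimum fold change and 1 to 4 when a library was left out, the 4 without TPC1 replicate 2, 3 without D11 replicate 1 or WB1 replicate 3, and 2 without TPC1 replicate 1 or WB1 replicate 1.

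The replicate block left all 5 counts where they were (3, 0, 11, 13 and 1), and with the GC correction it gave 7 pathway calls against TPC1. For TD5 against D11, the lines whose same-numbered libraries deviated together, the block alone changed no call.

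Among the members and the genes named with a test, the values that changed sign were small and met no call. With the GC correction, with or without the block, they were CASP8 in TD5 against D11 at 0.06 and against WB1 at 0.08, CASP6 in D11 against TPC1 at -0.04, in TD5 against D11 at 0.11 and against WB1 at 0.01, FADD in D11 and WB1 against TPC1 at 0.02 and 0.05, BZW1 in TD5 against D11 at 0.04 and ORC2 in D11 against TPC1 at -0.01. With median-of-ratios scaling they were CASP8 in TD5 against WB1 at 0.02, CASP9 in WB1 against TPC1 at -0.04 and in TD5 against WB1 at 0.04, and CASP6 in TD5 against D11 at 0.03, and with limma-voom CASP9 in TD5 against TPC1 at -0.02. When a library was left out, CASP2 in D11 against TPC1 ranged from -0.05 to 0.03, CASP9 against TPC1 from -0.11 to 0.09 in WB1 and from -0.12 to 0.11 in TD5, CASP9 in TD5 against WB1 from -0.09 to 0.09, CASP6 in TD5 against D11 from -0.07 to 0.06, CFLAR in TD5 against TPC1 from -0.04 to 0.02, and CFLAR in WB1 against D11 from -0.03 to 0.06.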
